A study of Mus musculus with 2 samples.

Results

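In E14TG2a.4 cells, a male mouse embryonic stem cell line of strain 129/Ola, 703 of the 113324 pooled peaks of trimethylated lysine 36 of histone H3 (H3K36me3) overlapped the start of a protein-coding gene. A start was the 5′ end of a GENCODE M21 coding gene with 500 bp on either side. The 703 peaks reached 661 of 21911 coding starts, which is a background of 3.02% of all coding starts with a peak. They were divided by whether the start lay inside the body of another coding gene, here called its host. For 297 peaks (42.2%) every start lay inside a host, for 399 (56.8%) every start lay outside other coding genes, and 7 had starts of both kinds.

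The mark was mapped by chromatin immunoprecipitation and sequencing in 2 biological replicates from separate biosamples of the same line and donor, with no treatment and no second genotype. Per the labels the cells are of an embryonic stage with an age of 3.5 days. Peaks were called on each replicate alone and on both together, and positions are on the mouse build mm10. Of the values deposited, the peaks' extents and the authors' own fold enrichment per peak were used; the files hold no read counts, so the depth behind them is unknown.

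H3K36me3 is placed by SETD2, a methyltransferase that travels with elongating RNA polymerase II, so the mark is known to cover the bodies of transcribed genes and to be low at their starts. Starts of active genes often lie in CpG islands, stretches rich in the dinucleotide CG, which are commonly unmethylated and carry H3K4 methylation. A coding start that carries H3K36me3 is therefore a departure from the usual layout. The rule used here asks only for a peak within 500 bp, so it also takes in starts that lie beside a peak. The start base itself was in a pooled peak for 272 of the 661 starts. The labelled cell type was checked on gene bodies. The pluripotency genes Pou5f1, Sox2, Nanog, Zfp42 and Esrrb had 35.4 to 80.1% of their bodies in peaks (mean of 2 replicates), and the fibroblast genes Col1a1, Col1a2, Col3a1, Thy1 and Twist1 had 0 in both replicates.

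The 300 bases upstream of a start show a contrast among the members. The sequences are from the GRCm38.p6 genome (RefSeq), 5′ to 3′ on the strand of the gene, with every CG in capitals; CG reads the same on both strands and no other motif was searched. At least 1 CG stood in 93.8% of the windows of this length over all coding starts, with a median of 9. The first 3 have all 300 bases in a pooled peak. Angptl8 at chr9:21835210-21835509 (+) holds 9 CG, Prss53 at chr7:127890971-127891270 (−) holds 3, and Rilp at chr11:75509794-75510093 (+) holds 6. The other starts, Rpl13a at chr7:45128762-45129061 (−) with 27 CG and Eef2 at chr10:81176331-81176630 (+) with 23, have 0 of these bases in the peak, which begins past the start.
Angptl8: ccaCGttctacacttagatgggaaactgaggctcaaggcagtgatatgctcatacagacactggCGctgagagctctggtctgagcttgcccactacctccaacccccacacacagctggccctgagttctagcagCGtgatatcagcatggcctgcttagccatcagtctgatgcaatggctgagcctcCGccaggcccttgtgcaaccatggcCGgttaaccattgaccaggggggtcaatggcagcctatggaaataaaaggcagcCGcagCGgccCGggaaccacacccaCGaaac
Prss53: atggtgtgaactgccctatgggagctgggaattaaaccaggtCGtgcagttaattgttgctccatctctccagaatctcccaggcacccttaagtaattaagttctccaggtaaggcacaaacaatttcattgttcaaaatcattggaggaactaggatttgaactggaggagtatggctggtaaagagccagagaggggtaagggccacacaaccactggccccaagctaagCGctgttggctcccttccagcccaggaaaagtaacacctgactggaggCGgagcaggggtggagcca
Rilp: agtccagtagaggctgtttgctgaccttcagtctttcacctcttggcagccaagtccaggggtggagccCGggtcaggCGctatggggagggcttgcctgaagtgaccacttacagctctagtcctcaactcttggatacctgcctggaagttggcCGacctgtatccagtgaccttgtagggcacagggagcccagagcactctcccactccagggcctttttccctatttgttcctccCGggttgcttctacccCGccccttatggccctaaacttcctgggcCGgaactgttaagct
Rpl13a: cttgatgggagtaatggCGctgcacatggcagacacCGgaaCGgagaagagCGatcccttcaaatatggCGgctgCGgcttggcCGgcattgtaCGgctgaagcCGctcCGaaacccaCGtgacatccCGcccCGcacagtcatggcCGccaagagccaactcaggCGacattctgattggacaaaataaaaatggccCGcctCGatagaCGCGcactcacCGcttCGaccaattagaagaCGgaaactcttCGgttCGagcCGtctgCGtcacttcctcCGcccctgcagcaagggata
Eef2: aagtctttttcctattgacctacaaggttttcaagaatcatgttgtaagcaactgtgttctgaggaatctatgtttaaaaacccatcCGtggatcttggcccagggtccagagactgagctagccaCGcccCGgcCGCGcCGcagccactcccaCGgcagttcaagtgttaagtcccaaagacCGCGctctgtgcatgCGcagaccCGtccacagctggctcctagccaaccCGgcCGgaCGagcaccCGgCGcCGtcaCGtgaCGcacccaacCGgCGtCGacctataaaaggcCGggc
At least 23 CG stood in 19.0% of the upstream windows of all coding starts, and at most 9 in 51.1%.

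Starts inside a host had a peak more often than those outside. Of the 2549 coding starts inside a host, 279 (10.9%) had a peak, against 382 of 19362 (1.97%) outside. By replicate the inside shares were 9.26% in replicate 1 and 8.71% in replicate 2 (8.98 ± 0.388, mean ± SD, n = 2), and the outside share was 1.58% in each. The ratio of inside to outside was 5.88 in replicate 1 and 5.53 in replicate 2 (5.70 ± 0.247). The inside share was the higher one in both replicates, by more than the spread between them. With 2 replicates an exact sign-flip test cannot go below p = 0.5 (two-sided), so no p-value is given for this or any later comparison. Starts inside a host made up 42.2% of the starts with a peak and 11.6% of all coding starts. Averaged over all starts of a kind, peaks covered 5.28 ± 0.261% of the whole window of inside starts and 0.645 ± 0.0260% of the window of outside starts.

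The peaks at starts were wide. Their median width was 2365 bp and their median fold 7.34, against 763 bp and 4.05 for the 112621 other peaks. A wide peak is more likely to touch a window of fixed size, so width is partly set by the rule. Inside peaks had a median of 2049 bp and a fold of 6.52, and outside peaks 2608 bp and 8.27. The 703 peaks held 1.61% of all covered bases (2.64 of 163 Mb) in 0.620% of the peaks. Of them, 670 reached 1 start, 33 reached more, and no peak reached more than 3.

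Most of the start peaks were called in each replicate. Of the 703, 576 (81.9%) were overlapped by at least 1 bp of a peak in both, 47 in replicate 1 only, 38 in replicate 2 only and 42 in neither. The background over all pooled peaks was 57.4%. Agreement followed width: among start peaks under 1 kb 37.8% were found in both replicates, against 34.2% of other peaks of that width. From 1 to 2 kb the shares were 91.9% of start peaks and 89.5% of other peaks, and from 2 to 5 kb 100% and 99.7%. Within a width class start peaks and the rest were close, and 26.7% of start peaks but 61.6% of other peaks were under 1 kb. Agreement was 82.2% for inside peaks and 81.5% for outside peaks. Replicate peaks covered 92.5 ± 1.79% of the bases of start peaks and 79.7 ± 4.87% of those of other peaks.

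**Figure D1:**
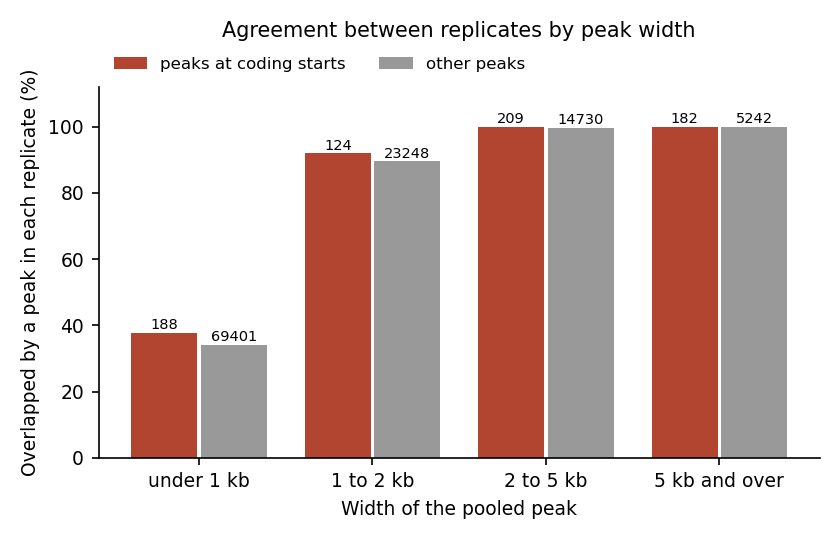
Percent of pooled peaks overlapped by a peak in each of the 2 replicates (vertical axis) by width of the pooled peak (horizontal axis), for peaks at coding starts (red) and other peaks (grey), with the number of peaks above each bar. The bars of a pair are close at every width, and the low bars are those under 1 kb (37.8% and 34.2%).

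Overlap of the peak and overlap of the start are not the same measure. The window of the start itself held a peak in both replicates for 437 of the 661 starts (66.1%), in replicate 1 alone for 89, in replicate 2 alone for 74 and in neither for 61. The members just within the edge were Ldhal6b, inside a host, with its peak 500 bp away (fold 3.03), and Prrt2, outside, at 499 bp (fold 14.1). Just beyond the edge were Atp5b at 502 bp (fold 6.99) and Smcr8 at 506 bp (fold 14.2). The number of starts by distance to the nearest pooled peak was 272 with the start base in a peak, 144 more within 250 bp, 245 beyond that and within 500 bp, and outside the rule 412 within 750 bp and 773 further ones within 1000 bp.

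Relative to the gene's own direction, the peak with the highest fold lay wholly upstream of the start for 260 members (99 inside, 161 outside), spanned the start base for 255 (140 inside, 115 outside) and lay wholly downstream for 146 (40 inside, 106 outside). The 3 positions went with different neighbours. Of inside members, 50.2% were spanned, against 30.1% of outside members. Downstream peaks belonged mostly to the member's own short gene: the median length of those genes was 3706 bp, and 89.0% of them were marked, meaning that peaks covered at least 10% of the body in each replicate. Peaks of 262 members (39.6%) had no base in the member's own body, and for 430 (65.1%) more of the peak lay in another coding body than in the member's own. Of the 661 genes 503 (76.1%) were marked, against 37.2% of all coding genes. With the peaks at the start left out of the count, 328 (49.6%) remained marked.

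These positions differed in CpG content. A start was called CpG-rich when the start and the 500 bp on either side had an observed over expected CpG ratio of at least 0.6 and a GC content of at least 50%, as 44.4% of all coding starts had. Of the 272 starts with their own base in a pooled peak, 3 (1.10%) were CpG-rich, and by replicate 3 of 237 in replicate 1 and 1 of 222 in replicate 2. Their median ratio was 0.223, against 0.552 over all coding starts. The 3 were named after their values were seen: Mcts2 (ratio 0.969), a retrogene known to be imprinted, Gnas (0.633), a G protein subunit gene at an imprinted locus with several promoters, and A730015C16Rik (0.757), inside Txndc12. In replicate 2 the highest ratio of a start with its base in a peak was 0.633, so the start bases of Mcts2 and A730015C16Rik were in no peak there. By the peak of highest fold, 1 of 140 inside starts and 0 of 115 outside starts that were spanned were CpG-rich. Where the peak lay upstream, CpG-rich starts numbered 44 of 99 inside and 69 of 161 outside. Where it lay downstream, they numbered 11 of 40 inside and 69 of 106 outside. The median number of CG in the 300 upstream bases was 4.00 for spanned inside starts and 3.00 for spanned outside starts. With a downstream peak it was 6 for inside and 15.5 for outside starts. With an upstream peak it was 7 for inside and 10 for outside starts. A high number thus went with a downstream peak outside hosts and not inside them. Ribosomal protein genes form part of that outside group. Of their 41 starts with a peak, 38 lay outside hosts, 40 had it downstream and 36 were CpG-rich.

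Inside a host, whether the host itself was marked and how CpG-rich the start was both went with the presence of a peak. Among the 1289 starts in marked hosts 258 (20.0%) had a peak, against 21 of 1260 (1.67%) in unmarked hosts. The replicate means were 16.6 ± 0.658% and 1.19 ± 0.112%. Since the peak at the start counts toward its host's coverage, the count was repeated without it: 207 of the 258 starts with a peak then still lay in a marked host, and 16.7% of all starts in marked hosts had a peak. Of the 279 members inside, 201 had both their own gene and the host marked, 57 the host alone, 12 their own gene alone and 9 neither.

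In marked hosts, 205 of 471 CpG-poor starts (43.5%) had a peak, against 53 of 818 CpG-rich starts (6.48%). By replicate the CpG-poor share was 38.6% and 36.9% (37.8 ± 1.20) and the CpG-rich share 4.65% and 4.16% (4.40 ± 0.346). CpG-rich starts tended to lie near the host's own start, at a median of 473 bp from it, against 9159 bp for CpG-poor starts. Among starts at least 5 kb from the host start, 149 of 284 CpG-poor starts (52.5%) and 17 of 209 CpG-rich starts (8.13%) had a peak. The median GC content was 52.0% at CpG-poor and 60.4% at CpG-rich starts. With GC of at least 55% in both classes, 48 of 149 CpG-poor starts (32.2%) and 37 of 675 CpG-rich starts (5.48%) had one. CpG-poor starts had the higher share in each of these comparisons, by more than the replicate SD. The part of mappability and of the control library in it was not tested.

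The share with a peak also differed along the host. With marked hosts divided into 3 equal parts, 107 of 237 starts (45.1%) in the distal part, toward the 3′ end, had a peak, 68 of 209 (32.5%) in the middle part and 83 of 843 (9.85%) in the proximal part. For CpG-poor starts the shares were 62.3, 50.4 and 25.2% in the distal, middle and proximal parts, and for CpG-rich starts 13.3, 10.6 and 4.99%. Starts on the host's strand had a peak in 29.6% of cases and those on the opposite strand in 15.7%, and the opposite-strand starts were mostly in the proximal part (684 of 887). On the host's strand the share was 48.3% in the distal part (42.0 ± 1.98 over the replicates), against 40.4% on the opposite strand (32.4 ± 3.76). In the middle part the strands had 31.0% (28.5 ± 2.12) and 33.9% (28.9 ± 1.95), and in the proximal part 11.9% (9.43 ± 1.78) and 9.36% (7.09 ± 0.930). Among CpG-poor starts 52.4% on the host's strand and 37.7% on the opposite strand had a peak, and among CpG-rich starts 9.77% and 5.31%. The strand difference was thus larger than the replicate SD in the distal and proximal parts and in both CpG classes. In the middle part it was within the SD. This SD is the spread between replicates at the same starts and does not measure the spread among starts. The shares by CpG class and strand pool the 3 parts of the host, so they also hold the uneven placement of the strands. Starts in a host exon (20.7%) and in a host intron (19.4%) were close. Members sat at a median of 57.4% of the host's length, against 18% for all inside starts.

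**Figure D2:**
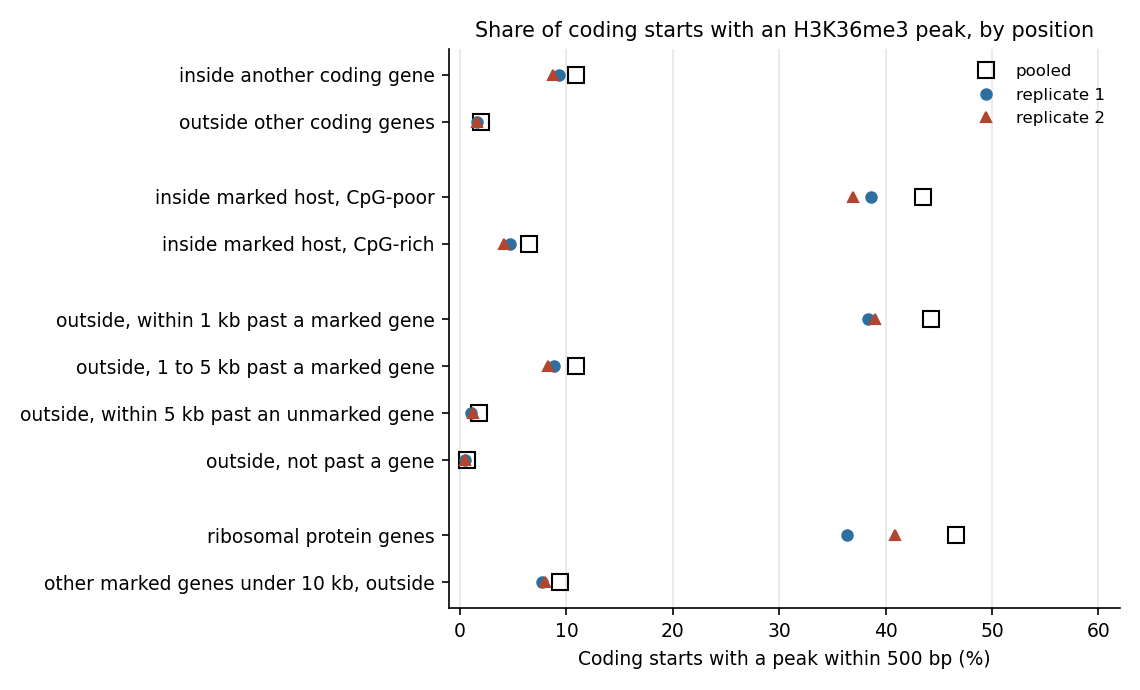
Percent of coding starts with an H3K36me3 peak within 500 bp (horizontal axis) for classes of starts (vertical axis), for the pooled set (squares), replicate 1 (circles) and replicate 2 (triangles). CpG-poor starts in marked hosts (43.5% pooled) and starts within 1 kb past a marked gene (44.3%) exceed their paired classes in both replicates. Ribosomal protein genes (46.6%) exceed the other marked outside genes under 10 kb in both replicates, but these sets are not matched. Of the 88 ribosomal protein genes, 78 are marked, 14 start inside a host and the longest is 31449 bp.

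Coverage was also averaged around all starts in marked hosts, with or without a peak at the start. Around 808 CpG-rich starts in marked hosts of at least 3 kb, counting only bases inside the host, peaks covered 48.1 ± 3.07% of bases from −3000 to −2750 bp and 0.150 ± 0.127% of the first 250 bp downstream. Around 466 CpG-poor starts the same positions had 46.1 ± 2.77% and 25.8 ± 0.665%. The CpG-rich curve thus came near to 0 at the start and the CpG-poor curve did not. These classes were not matched for distance from the host's own start, to which CpG-rich starts lay closer, so many of their bins lie near that start. In the first 250 bp downstream, 608 of the 808 CpG-rich starts and 437 of the 466 CpG-poor starts were counted. How much of the contrast goes with that distance was not tested in these curves. A peak at the start can itself make the host marked, so hosts were also called marked without it, which left 798 CpG-rich starts with 0.147 ± 0.136% of the first 250 bp covered and 432 CpG-poor starts with 23 ± 0.371%. With the host judged only by its bases more than 5 kb from the start, the values were 0.179 ± 0.165% around 649 CpG-rich starts and 22.8 ± 0.685% around 379 CpG-poor starts. Outside hosts, 1409 starts lay within 5 kb past the 3′ end of a marked gene on either strand. They had 57.5 ± 1.04% of bases covered from −5000 to −4750 bp and 4.92 ± 0.0518% in the first 250 bp. Where that gene was marked without the peaks at the start (1330 starts), the first 250 bp had 3.68 ± 0.00851%. The 5521 starts of marked genes that lay past no gene had 9.70 ± 0.790% from −5000 to −4750 bp and 0.308 ± 0.0252% in the last 250 bp before the start.

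**Figure D3:**
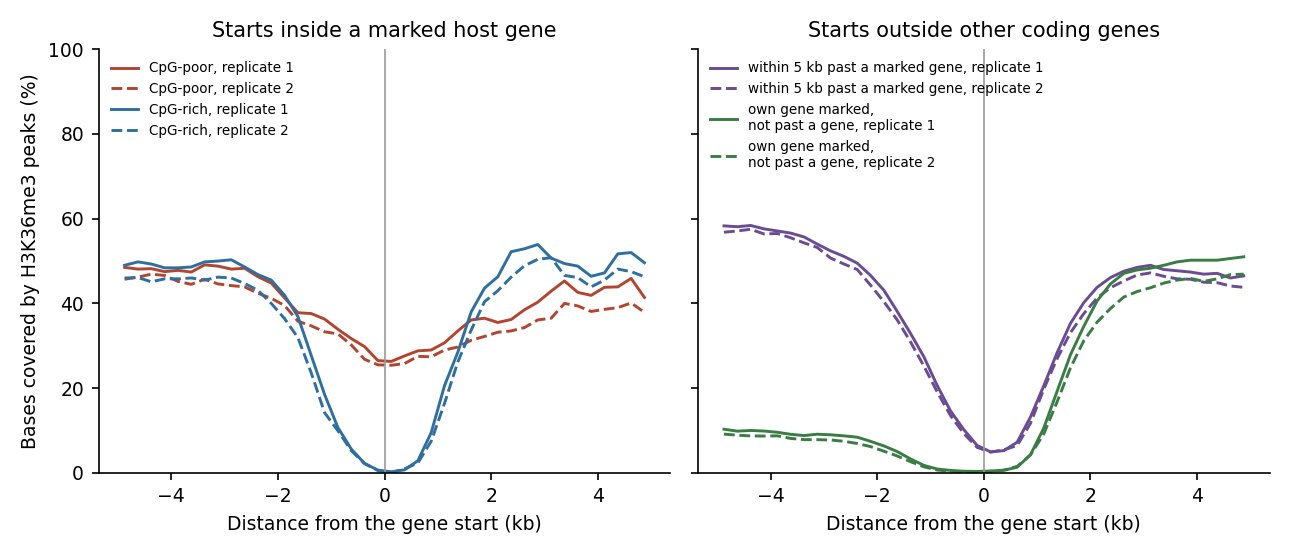
Percent of bases in H3K36me3 peaks (vertical axis) in 250 bp bins by distance from the gene start in kb, in the direction of the gene (horizontal axis), for replicate 1 (solid) and replicate 2 (dashed). On the left, CpG-poor starts in marked hosts stay above 25% and CpG-rich starts, which lie closer to the host's own start, reach 0.150%. On the right, starts past a marked gene reach 4.92% and other starts of marked genes 0.308%.

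The 10 inside members of highest fold, chosen from those found in both replicates, show what these figures look like at single genes. RPS10-NUDT3, a record that joins the ribosomal protein gene Rps10 to its neighbour, starts in a Rps10 exon on chromosome 17 and had the highest fold of any start peak, 20.5 (15.3 in replicate 1, 25.3 in replicate 2). Its peak of 5416 bp begins 311 bp past the start, with 83.0% of it in other coding bodies. The start is CpG-rich (ratio 0.812). 4930556J24Rik starts on the opposite strand in an exon of Pes1, a ribosome assembly factor, and a peak of 17005 bp spans it (fold 19.9; 15.5 and 21.8 by replicate). Peaks filled 100% of its window in each replicate, and its ratio is 0.198.

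A further 3 members of this group were spanned by a long peak. Angptl8, a liver and fat hormone that acts on lipoprotein lipase, starts at 21835510 on chromosome 9 in an intron of Dock6, an exchange factor for small GTPases on the other strand. Its peak runs for 27775 bp, from −23768 to 4006 bp relative to the start, with a fold of 16.9 (12.7 and 20.6). Dock6 had 91.2 and 89.9% of its body covered, and 6.62% of the peak lies in Angptl8. Prss53, a serine protease gene on chromosome 7, lies in an intron of the predicted gene Gm21974 and is spanned by a peak of 17110 bp (fold 16.8; 13.1 and 18.8). The windows of Angptl8 were covered to 100% in both replicates, and those of Prss53 to 90.7% and 83.4%. Gm42715, which starts in an exon of the chromatin remodeller gene Srcap, is spanned by a peak of 6161 bp (fold 18), 100% and 90.2% of its window covered.

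In the other members described, the peak of highest fold does not reach the start base. Atp5f1, a subunit of mitochondrial ATP synthase, starts in an exon of Wdr77, a partner of the arginine methyltransferase PRMT5, on the opposite strand. The peak of 10665 bp ends 207 bp short of the start (fold 18.3; 14.3 and 20.8) and lies to 91.3% in other coding genes. Peaks held 29.0% of the window in replicate 1 and 0 in replicate 2, so the replicates did not agree at the start although both hold the peak. Sco2, a copper chaperone of cytochrome c oxidase inside Tymp, had 0 and 13.6% of its window covered, with its peak of 16281 bp beginning 419 bp past the start. Rpl13a, inside the predicted gene Gm45713, had 14 and 16.2%, with its peak of 2893 bp almost wholly (99.2%) in its own body (fold 18.4; 11.8 and 21.5). Dapk3, a kinase gene inside 4930442H23Rik, was reached from upstream by the peak of Eef2, which ends 299 bp before it. Gm49388, in an exon of the H3K4 methyltransferase gene Setd1a, had 79.6 and 92.3% of its window covered, though the pooled peak of highest fold there begins 475 bp past the start.

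**Figure D4:**
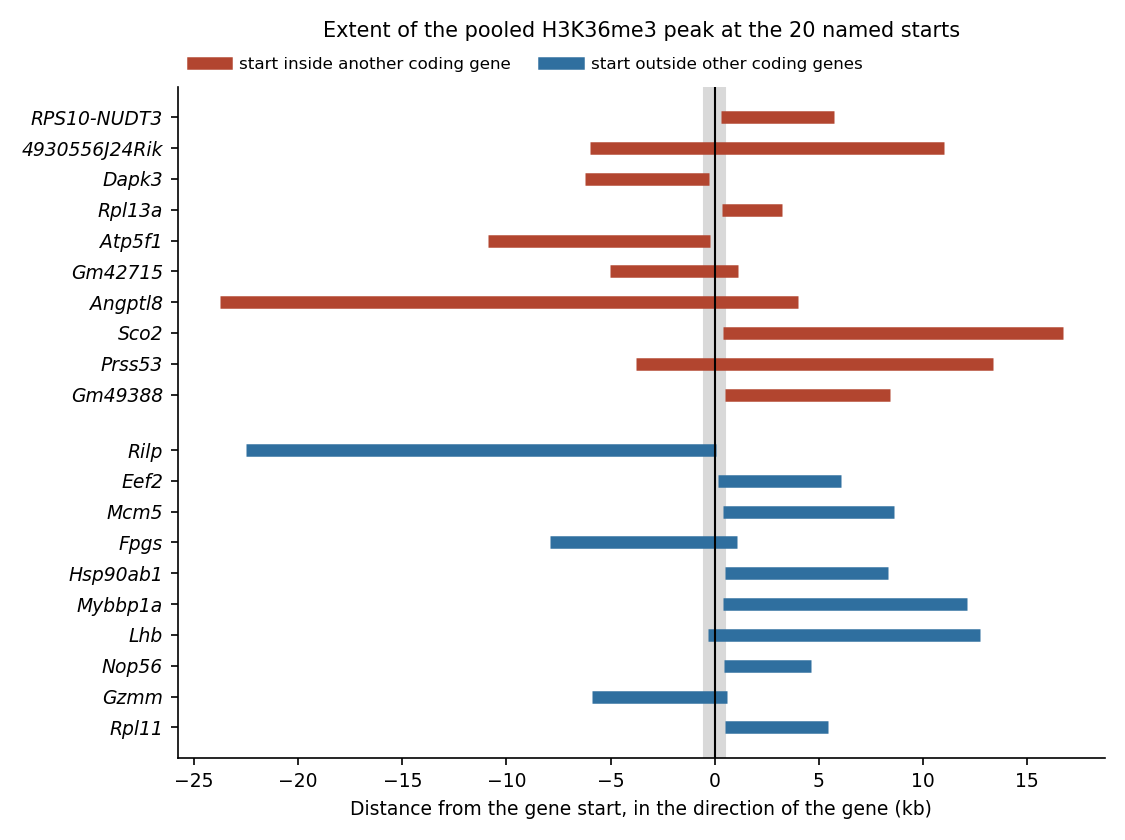
Extent of the pooled peak of highest fold at each of the 20 named starts (vertical axis), in kb from the gene start in the direction of the gene (horizontal axis); the black line marks the start and the grey band the 500 bp on either side. Peaks at starts inside a host are red and those outside are blue; 4 red and 4 blue peaks cross the start, among them those of Angptl8 (27775 bp) and Rilp (22572 bp).

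Outside hosts, most members started near the 3′ end of another coding gene. Of the 382, 278 (72.8%) started within 5 kb past the 3′ end of another coding gene, against 14.4% of all outside starts. Counted by peak, 290 of the 399 outside peaks (72.7%) had such a start. That other gene was marked in 254 of the 278 and lay on the same strand in 234. The distance was taken from its 3′ end whatever its strand, so a gene on the opposite strand lies downstream of the start. Within 5 kb past a marked gene 254 of 1409 starts (18%) had a peak, past an unmarked gene 24 of 1378 (1.74%), and past no gene 104 of 16575 (0.627%). The replicate means were 15.0 ± 0.201, 1.12 ± 0.154 and 0.474 ± 0.00427%, so the order was the same in each replicate. With the peaks at the start left out of the marked gene's coverage, 175 of the 254 starts still lay past a marked gene. The share of starts with a peak within 5 kb past a marked gene became 13.2%.

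Closeness to the end of the marked gene went with a higher share. Within 1 kb of it 133 of 300 starts (44.3%) had a peak (38.7 ± 0.471% over the replicates), and from 1 to 5 kb 121 of 1109 (10.9%; 8.57 ± 0.383%). The CpG contrast was present here too. Within 1 kb, 56.8% of CpG-poor starts and 29.7% of CpG-rich starts had a peak, and from 1 to 5 kb 16.4% and 6.29%. Of the 278 members past a gene, the peak lay upstream for 136, spanned the start for 86 and lay downstream for 56.

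Of the 10 outside members of highest fold, 4 had a peak that spans the start. Rilp, an effector of the lysosomal GTPase RAB7, starts at 75510094 on chromosome 11, 645 bp past the end of Prpf8, a core protein of the spliceosome. Prpf8 was covered to 96.7% and 96.1%, and its peak runs for 22572 bp to 61 bp past the Rilp start (fold 20.0; 16.4 and 17.8). The body of Rilp was covered to 2.11% and 0. Fpgs, which adds glutamates to folates, starts 1639 bp past Cdk9, the kinase of the elongation factor P-TEFb, and a peak of 8958 bp spans its start (fold 18.2; 12.7 and 21.3). Gzmm, a granzyme of killer lymphocytes, starts 622 bp past Cdc34, a ubiquitin-conjugating enzyme, in a peak of 6455 bp (fold 17.5; 13.3 and 20.5), and its own body was covered to 16.3 and 12.2%. Lhb, the beta chain of the pituitary luteinizing hormone, starts 940 bp past Ruvbl2, an ATPase of chromatin remodelling complexes. A peak of 13042 bp spans the Lhb start (fold 17.9; 14.6 and 19.1) and lies to 90.5% in other coding genes, while it fills 100% of the 1078 bp of Lhb. That peak begins 303 bp before the Lhb start and extends downstream, so nearly all of its bases in other coding genes lie downstream of that start. The distance of 940 bp is counted from the 3′ end of Ruvbl2, on whichever side of the Lhb start that gene lies. Of the other peaks, 96.9% (Rilp), 70.0% (Fpgs) and 81.5% (Gzmm) lay in coding genes other than the one whose start they span.

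The other 6 of the 10 had a peak of their own gene that begins past the start. Eef2, the translation elongation factor, had 158 bp between its start at 81176631 on chromosome 10 and a peak of 5918 bp (fold 19.2; 16.0 and 22.2) that runs past the end of the gene. Its window was covered to 21.2 and 13.2%. Mcm5, of the replicative helicase, had a gap of 377 bp (fold 19.1), Mybbp1a, a nucleolar protein, 410 bp (18), and Nop56, of box C/D ribonucleoproteins, 428 bp (17.8). Rpl11 had 488 bp (17.5) and the chaperone gene Hsp90ab1 491 bp (18.1). All 6 starts were CpG-rich, with ratios from 0.643 for Rpl11 to 0.883 for Nop56, and their genes were covered to at least 84.4% in each replicate except Rpl11, at 26.2 and 22.9%. The annotated body of Rpl11 is 25164 bp long and its peak 4947 bp.

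Ribosomal protein genes, which encode the proteins of the cytoplasmic ribosome, had the highest share of starts with a peak among the gene lists counted. Of 88 annotated ribosomal protein genes, 41 (46.6%) had a start peak, 36.4% in replicate 1 and 40.9% in replicate 2 (38.6 ± 3.21). The symbol pattern also takes the Rps6k kinases, which were left out after the values were seen; with them it is 41 of 98. Of the 41, 40 had their peak downstream, at 163 to 494 bp with a median of 361 bp, and 36 were CpG-rich. Their median fold was 12.6, from 4.39 to 18.4, and their median length 2753 bp. The 47 without a peak had a median of 3569 bp, 31 were CpG-rich, and 37 were marked. Among 1668 other marked genes under 10 kb that lie outside hosts, 156 (9.35%; 7.85 ± 0.170 over the replicates) had a start peak, 44 of them downstream. The first peak base of marked outside genes under 10 kb lay at a median of 1289 bp from the start, and for those of 10 kb and over at 2176 bp. In the same split by length, 11.1% of marked outside genes under 10 kb and 1.89% of longer ones had a start peak.

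Other gene groups had lower shares than the ribosomal protein genes, to be read beside the 3.02% of all coding starts with a peak. Predicted genes (symbols Gm plus digits) had 85 of 1504 (5.65%), of which 69 were inside a host and 56 spanned, and Rik genes 34 of 581 (5.85%). Predicted symbols made up 24.7% of inside members and 15.3% of all inside starts, and records of automated annotation 11.1 and 5.10%. Zinc finger genes had 5 of 394 (1.27%) although 236 were marked, and mitochondrial ribosomal protein genes 4 of 78 (5.13%) although 69 were marked. Hox genes had 0 of 39, replication-dependent histone genes 0 of 67, Ugt1a genes 0 of 9 and olfactory receptors 1 of 1134, and among these groups only that receptor gene, Olfr986, was marked. Its peak (fold 2.01) was found in neither replicate. At a share of 3.02% the groups of 39, 67 and 9 genes would hold few members, so their counts of 0 say little about them. Clustered protocadherins had 1 of 56, Pcdhgc5 (fold 4.43; 4.19 and 4.89).

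Among 25 pluripotency genes, 23 were marked and 1, Sox2, was a member (4.00%). That is close to the 3.02% of all coding starts with a peak. Sox2 is a single-exon transcription factor gene inside a non-coding gene, and its peak of 2384 bp begins 229 bp past the start with a fold of 6.31 (7.40 and 6.84). Its window had 0 and 12% of bases covered. Of 25 genes whose products write, erase or bind H3K36 methylation, 22 were marked and 2 were members. Phf1, a Polycomb accessory protein whose Tudor domain binds H3K36me3, starts 469 bp past Kifc5b, whose peak of 9835 bp ends 92 bp before it (fold 13.0; 11.5 and 13.0). Mtf2, another such protein, had a peak of 1020 bp ending 303 bp upstream (fold 3.29), which was found in replicate 1 (3.82) and not in replicate 2.

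Of 4 genes listed for imprinting inside host genes, 3 start inside a host as defined here, and Mcts2 was the member. It lies in an intron of H13 on the same strand, at 44.8% of its length, and H13 was covered to 73.1 and 71.0%. The peak of highest fold there, of 12815 bp, ends 383 bp upstream of Mcts2 (fold 11.6; 10.7 and 10), and another reaches the start base. The 912 bp of Mcts2 were covered to 100% and 79.3%, its window to 62.4% and 31.2%. The start is CpG-rich (ratio 0.969), so Mcts2 is one of the 3 exceptions above in the pooled set, though its start base was in no peak of replicate 2. The files do not tell the alleles apart.

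The widest start peak, of 29751 bp, begins 69 bp past AC141477.1, a record of 204 bp in an intron of Pcnt, the centrosome protein pericentrin, which was covered to 91.4 and 90.9%. Those of Exosc6, an RNA exosome subunit in an exon of Aars (20901 bp), and of the stomach hormone gene Ghrl (20710 bp) came after Angptl8 and Rilp. The Exosc6 peak ends 130 bp before its start, which is CpG-rich (ratio 0.992), and the Ghrl peak spans a CpG-poor start (0.133) whose gene was covered to 98.7 and 98.5%. The peak that reached 3 starts, of 9155 bp, lies over Rpl18, Fam83e and Spaca4 and ends 368 bp from the start of Sphk2, a sphingosine kinase. Fam83e was spanned (window 100% in both replicates), Spaca4, a sperm acrosome gene, was spanned with 91.6 and 18.9% of its window covered, and Sphk2 had 11.5% and 0. Tex52 and Gm44596 both start near the end of Foxm1, a cell-cycle transcription factor gene, and share the end of its peak of 7048 bp (fold 14.6; 13.3 and 15.9).

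Members with weak support were narrow. Among the 42 start peaks found in neither replicate, those of highest fold were at 4930590J08Rik (288 bp, fold 4.54), Spag1 (560 bp, 4.16) and Cfp (513 bp, 4.08). All 3 start within 5 kb past a marked gene. At 4930590J08Rik and Spag1 other replicate peaks entered the window (27.2 and 9.69%; 0 and 25.2%), and at Cfp none did.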

How the data were processed

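H3K36me3 ChIP-seq peaks of 2 replicates were analysed. Per the deposited file lists, the sets used are narrow peaks on mm10: pooled and per-replicate sets supported by pseudoreplicates, a set found in both replicates, and a pooled unthresholded set from other alignments. For the aligner, caller and read number, the methods were not given in the sources used here. Control libraries were not analysed. The deposited peaks carry a fold enrichment (a ratio over background as the authors' caller gave it) and a q-value deposited as −log10. A narrow caller divides a broad mark into many peaks.

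Gene models were GENCODE M21 coding genes on chromosomes 1 to 19, X and Y, with the longest record per symbol (27 of 21938 records left out). The host was the longest coding gene over the start. Bases came from GRCm38.p6 (RefSeq); 0 pooled peaks lay past a chromosome end. The joins were written in Python 3.11.15 with NumPy 2.4.6 and tested on simulated peaks: 100% of 200 placed starts among 21911 genes were recovered. Named genes were the 10 inside and 10 outside of highest fold found in both replicates, the 5 widest peaks, the 5 with most starts, up to 3 per list, 3 found in neither replicate, and the 4 nearest the edge; not all are described, and a result at one shared peak is not reported here. The upstream sequences were those of the first of these whose window touches no exon. Members, lists and tests were chosen with earlier results of these data known. Replicates formed 1 group, so values are descriptions with mean ± SD (n = 2), and no test across starts was run, since neighbouring starts can share a peak. The labels give separate biosamples of 1 line, so the SD measures the spread between these samples and not the spread among starts.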

Additional observations from a re-analysis of the deposited data

How the results depend on the processing

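The share of starts with a peak was higher inside hosts than outside under every alternative run for it. In marked hosts it was higher for CpG-poor than for CpG-rich starts with each replicate left out and under the alternatives chosen after seeing the data. The CpG comparison was not repeated with other windows, q-values, peak sets, transcript starts or gene records. The window decided the numbers. With 250 bp on either side there were 431 peaks at 416 starts, with 1000 bp 1891 at 1846, and with the start base alone 269 at 272. The share of peaks with all starts inside a host was then 49.2, 28.1 and 55%, the inside share 8.08, 21.3 and 5.88%, the outside share 1.08, 6.73 and 0.630%, and the median width 2422, 2281 and 2928 bp. Peaks at the start base were found in both replicates in 85.1% of cases. With peaks of −log10 q of at least 5 the inside and outside shares were 10.6 and 1.91%, the median width 2533 bp and agreement 86.1%. The pooled unthresholded set of the other run gave 12.8 and 2.45%, 40.8% of peaks inside, 1456 bp and 65.1% agreement. Peaks of the deposited replicated set gave 1.96% outside and 2435 bp. APPRIS principal transcript starts gave 10.2 and 2.11%, 35.4% of peaks inside and 2384 bp, and leaving out automated gene records 10.4 and 1.97%, 39.3% and 2438 bp. Requiring overlap of 50% of the peak lowered agreement to 76.7%. Of outside peaks, 81.7% had a start within 10 kb past a gene and 35.3% within 1 kb.

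With each replicate left out in turn, peak numbers were 563 to 582 and start numbers 527 to 541. The share of peaks inside was 44.2 to 45.2%, the inside share 8.71 to 9.26%, the outside share 1.58% both times and width 1885 to 1907 bp. Of the start peaks of the replicate kept, 89.2 to 91.8% were overlapped by a peak of the other replicate. These shares are not comparable with the agreement of the pooled peaks, which had to be found in each replicate. CpG-poor starts then had 36.9 to 38.6% and CpG-rich starts 4.16 to 4.65%. Chosen after seeing the data, further alternatives for CpG-poor and CpG-rich starts gave 52.5 and 8.13% at 5 kb or more from the host start, 28.4 and 4.62% with a CpG ratio of at least 0.75 and GC of at least 55% for the rich class, 51.2 and 8.13% in hosts covered to at least 25%, 38.7 and 4.85% with the peaks at the start left out of the host's share, and 32.2 and 5.48% at GC of at least 55%. With hosts judged without the peaks at the start or only beyond 5 kb from it, also chosen after seeing the data, coverage of the first 250 bp was 23 and 22.8% at CpG-poor and 0.147 and 0.179% at CpG-rich starts. The cause of these shifts was not tested.

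No paired analysis was possible because the 2 replicates form 1 group. Depth is unknown and the peak sets were thresholded by the authors, so a start without a peak is one without a call. The cells are of another strain than the reference genome. Annotated starts were used, whichever start these cells use, and 1 peak can reach several starts.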

Other observations

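The 104 outside members that did not start within 5 kb past a coding gene had a different layout. In 17 the start lay in a non-coding gene, and in 87 it lay in neither kind of position. Of the 87, 45 had their peak downstream, 23 were spanned and 19 had it upstream, and 73 of their genes were marked. Among the 278 members past a coding gene the peak lay downstream for 56 and upstream for 136.

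The members were unevenly placed among chromosomes. Chromosome 7 held 85 of the 661 members (12.9%) and 9.22% of all coding starts, and chromosome 17 held 57 (8.62%) and 4.81%. Chromosome X held 10 (1.51%) and 4.33%, and chromosome Y 0 of its 183 coding starts. The unevenness was not tested.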
